A study of Mus musculus with 2 samples.

Results

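The genes described here are 38 mouse genes of DNA replication and mitosis, taken by symbol from a fixed list, and all 38 were found once each among the 32285 genes counted. They were split into 17 replication members and 21 mitosis members, which lie on 16 chromosomes of GRCm38. They were measured in single cells of eye cups from E17.5 mouse embryos, with 1 library for Myrf humWT/humWT and 1 for Myrf humdG/humdG, hereafter the humWT and humdG libraries. In both strains the last exon of Myrf is human, and humdG adds to it a frameshift variant near the C-terminus, so that the humanized exon is common to both groups. The labels give 3 eye cups pooled per library with cornea, lens and optic nerve taken off, whereas the paper's methods describe 3 mice with both eyes used and the cornea left in place, and the extraction protocol in the labels names conditional knockout mice, so the dissection is uncertain. Each genotype is 1 library without a replicate, so no test between genotypes was possible, and every interval given is a 95% interval for counting error alone. The measurements are unique molecular identifiers (UMIs), each standing for 1 captured transcript, and levels are given as CPM, a gene's UMIs scaled in the usual way to the total UMIs of a group of cells.

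After filtering, 16166 humWT cells and 18173 humdG cells remained, at medians of 3785 and 2624 UMIs per cell. Their medians were 1433 and 1196 genes per cell. The paper reports fewer cells of each genotype, with comparable and higher median genes per cell, so its set of cells differs from this one. The libraries shared 102 cell barcodes, 0.586% of those of humWT. Cells were grouped into 24 clusters with the members, the other cell cycle genes and histone genes kept out of the clustering, so that no group of cells was defined by a member. Of these, 20 clusters received 1 of 14 class names from marker genes, and the largest cluster, with 4416 humWT and 8304 humdG cells, stayed unnamed. The retinal pigment epithelium (RPE)-like class held 610 humWT and 453 humdG cells. Its pigment markers Pmel (6124 and 7415 CPM), Dct (4923 and 4264 CPM) and Ttr (3776 and 2774 CPM) were abundant in humWT and humdG, the late visual cycle marker Rpe65 was near 0 in both (0.668 and 1.17 CPM), and the melanocyte marker Pax3 was at 4.45 and 0 CPM. The 6 melanocyte markers together were at 6472 and 7206 CPM, of which Ptgds made up 6241 and 6971 CPM, near their sum in the unnamed pigment cluster with Pax3 (6942 and 8741 CPM), where Pax3 was at 232.5 and 233 CPM and Ttr at 58.4 and 65.6 CPM.

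A cell copies its DNA in S phase and divides in M phase, and most genes of each step are transcribed shortly before they are needed. Before S phase, the MCM helicase is loaded at replication origins, and at its onset Cdc45 and the GINS complex switch the helicase on. Cyclin-dependent kinase 1 with its cyclins then drives entry into mitosis, and the anaphase-promoting complex ends it by marking cyclins and other proteins for destruction. In the developing eye, retinal progenitors are still dividing at this age, while photoreceptor precursors, amacrine cells and horizontal cells have largely left the cell cycle, and the RPE forms a layer that divides less as it matures.

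Members were highest in retinal progenitor-like and neurogenic-like cells of both libraries, and no other named class passed 3103 CPM in humWT or 3220 CPM in humdG. Summed over all 38 members, the level was 6064 CPM (6025 to 6104) in humWT and 5699 CPM (5671 to 5729) in humdG retinal progenitor-like cells, and 5772 CPM (5692 to 5852) and 5923 CPM (5864 to 5982) in neurogenic-like cells, which carry markers such as Atoh7 and Neurog2. RPE-like cells held 1006 CPM (976 to 1035) in humWT and 1360 CPM (1315 to 1406) in humdG. Amacrine and horizontal-like cells were close to that level, with 924 CPM (892 to 958) and 1159 CPM (1132 to 1188). Red blood cell-like cells, which at this age are largely without a nucleus, were taken as the background of free RNA in the droplets. They still held 913 CPM in humWT and 1328 CPM in humdG. Whether they carry member transcripts of their own was not tested. In that class the 7 red blood cell markers together took 462129 CPM in humWT and 551739 CPM in humdG. They lower the CPM of all other genes there, and ratios to this background were not corrected for it. The RPE-like level was 1.10 times this background in humWT (1.05 to 1.16) and 1.02 times in humdG (0.965 to 1.09), whereas the retinal progenitor-like level was 6.64 times (6.36 to 6.94) and 4.29 times (4.08 to 4.51).

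To count cells, each cell was thinned at random to 1000 UMIs, and a cell with at least 2 member UMIs was called. Among retinal progenitor-like cells, 78.3% (76.3 to 80.3) were called in humWT and 82.9% (81.5 to 84.3) in humdG, at median depths of 8467 and 8631 UMIs before thinning. Since the summed level had the opposite order, no order of the genotypes is read from these shares. Neurogenic-like cells followed with 70.5% (65.8 to 74.9) and 74.8% (71.5 to 77.9). In RPE-like cells the called share was 34.1% (30.3 to 38) in humWT and 60.1% (55.4 to 64.6) in humdG, at median depths of 3696.5 and 2387 UMIs. The background share, in red blood cell-like cells, was 30.3% (26.4 to 34.4) in humWT and 45.6% (39.5 to 51.9) in humdG, at 3942 and 3998 UMIs. The humWT RPE-like share overlapped this background, and the humdG share lay above it in a class of lower depth. Red blood cell markers also filled part of the 1000 UMIs of thinned red blood cell-like cells, which lowers their called share. A thinned RPE-like cell held on average 1.31 member UMIs in humWT and 2.26 in humdG, which is near the level of single UMIs, so the shares cannot be read as shares of dividing cells. Without thinning, 89.7% of humWT and 95.6% of humdG RPE-like cells had at least 2 member UMIs, as did 82.4% and 94.9% of red blood cell-like cells.

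Higher called shares in humdG were common to most classes. They were 43.8% and 69.2% in muscle-like cells, 53.9% and 71.4% in cartilage-like cells, 43.2% and 62.2% in blood vessel-like cells, 33.1% and 52.7% in white blood cell-like cells and 26.3% and 37.1% in mesenchyme-like cells. Of the 4 mesenchyme-like clusters, 1 with 620 humWT and 488 humdG cells had 38.9% and 65.9%, another had 23.8% and 23.6%, and the smallest had the opposite order (36.6% and 27.1%). Neural crest and glia-like cells, with 51 and 40 cells, were the class with the opposite order (41.2% and 27.5%), with intervals that overlapped. In photoreceptor precursor-like (35.1% and 46.7%), pericyte-like (35.1% and 55.0%) and surface epithelium-like cells (23.9% and 55.0%) the summed level was lower in humdG, so no order is read from their shares either. Over all cells, the share was 47.7% (47.0 to 48.5) in humWT and 70.1% (69.4 to 70.7) in humdG. The largest unnamed cluster, at 58.4% and 81.0%, took 27.3% of the humWT and 45.7% of the humdG cells, and without it the shares were 43.8% and 61.2%.

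**Figure D1:**
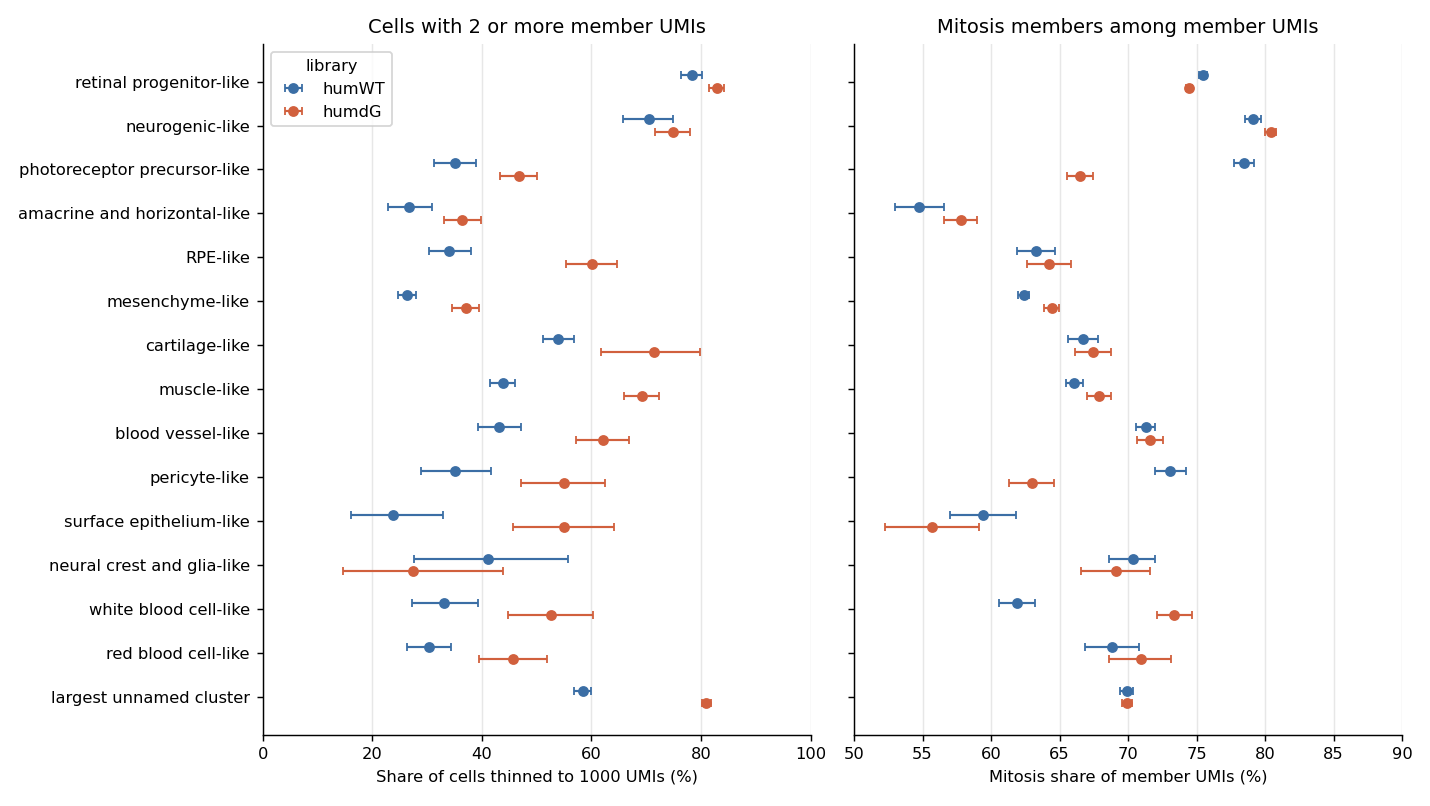
Left, the share of cells (%) with 2 or more member UMIs after thinning to 1000 UMIs, by class and library; right, the share of member UMIs (%) that came from the 21 mitosis members. Points are 1 library each and bars are exact 95% intervals for counting error. Retinal progenitor-like and neurogenic-like cells lie highest of the named classes on the left, RPE-like cells lie near red blood cell-like cells in humWT, and photoreceptor precursor-like cells have the widest gap among retinal classes on the right, 78.5% against 66.5%.

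The balance between the phases was measured as the share of member UMIs from mitosis members, which needs no call per cell. In RPE-like cells it was 63.3% (61.9 to 64.7) in humWT and 64.2% (62.6 to 65.8) in humdG, so that the difference was within counting error. Red blood cell-like cells had 68.9% (66.8 to 70.8) and 70.9% (68.6 to 73.2), close to the 70.3% and 72.0% of all cells together. The 2 libraries were also near each other in retinal progenitor-like cells, at 75.5% (75.2 to 75.7) in humWT and 74.5% (74.3 to 74.7) in humdG. The lowest mitosis share was that of amacrine and horizontal-like cells in humWT (54.8%, against 57.8% in humdG) and that of surface epithelium-like cells in humdG (55.7%, against 59.4% in humWT). The classes in which the balance differed most between the libraries were photoreceptor precursor-like cells, at 78.5% (77.8 to 79.2) in humWT and 66.5% (65.6 to 67.5) in humdG, and white blood cell-like cells, at 61.9% (60.6 to 63.2) and 73.4% (72.1 to 74.7).

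Member by member, retinal progenitor-like or neurogenic-like cells were the highest of the 14 classes for 36 of the 38 members in humWT and for 34 in humdG. The 6 subunits of the MCM helicase were highest in retinal progenitor-like cells in humWT. Mcm6 was at 153 CPM in humWT and 150.5 CPM in humdG in that class, and the next class was neurogenic-like in humWT (113 CPM) and cartilage-like in humdG (98.1 CPM). Pcna, the sliding clamp of DNA polymerase, was at 245 and 226 CPM in retinal progenitor-like cells and at 201 and 185 CPM in neurogenic-like cells. Rrm2, the small subunit of the enzyme that makes deoxynucleotides, was instead higher in neurogenic-like cells, at 109 and 102 CPM against 82.5 and 70.4 CPM in retinal progenitor-like cells. Several mitosis members were higher in neurogenic-like cells in both libraries. Top2a, which untangles chromosomes, was at 819 and 829 CPM there against 748 and 690 CPM in the progenitors. Hmmr, a spindle protein, was at 149 and 159 CPM against 115 and 114 CPM. Tpx2, which activates Aurora A on the spindle, was at 239 and 257 CPM against 203 and 185 CPM.

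Cyclin E1 departed from this pattern. Ccne1, whose protein activates CDK2 at the start of S phase, was highest in muscle-like cells, at 47.2 CPM (43.0 to 51.6) in humWT and 41.1 CPM (35.0 to 47.9) in humdG, and was at 15.2 and 9.23 CPM in retinal progenitor-like cells. Within the muscle-like class it was at 86.3 CPM in humWT and 64.5 CPM in humdG in the cluster with Myog, Myod1 and Pax7, which mark muscle precursors, and at 8.003 and 6.81 CPM in the cluster with Ttn and Myh3, which mark muscle fibres. In red blood cell-like cells Ccne1 had 1 UMI in each library.

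**Figure D2:**
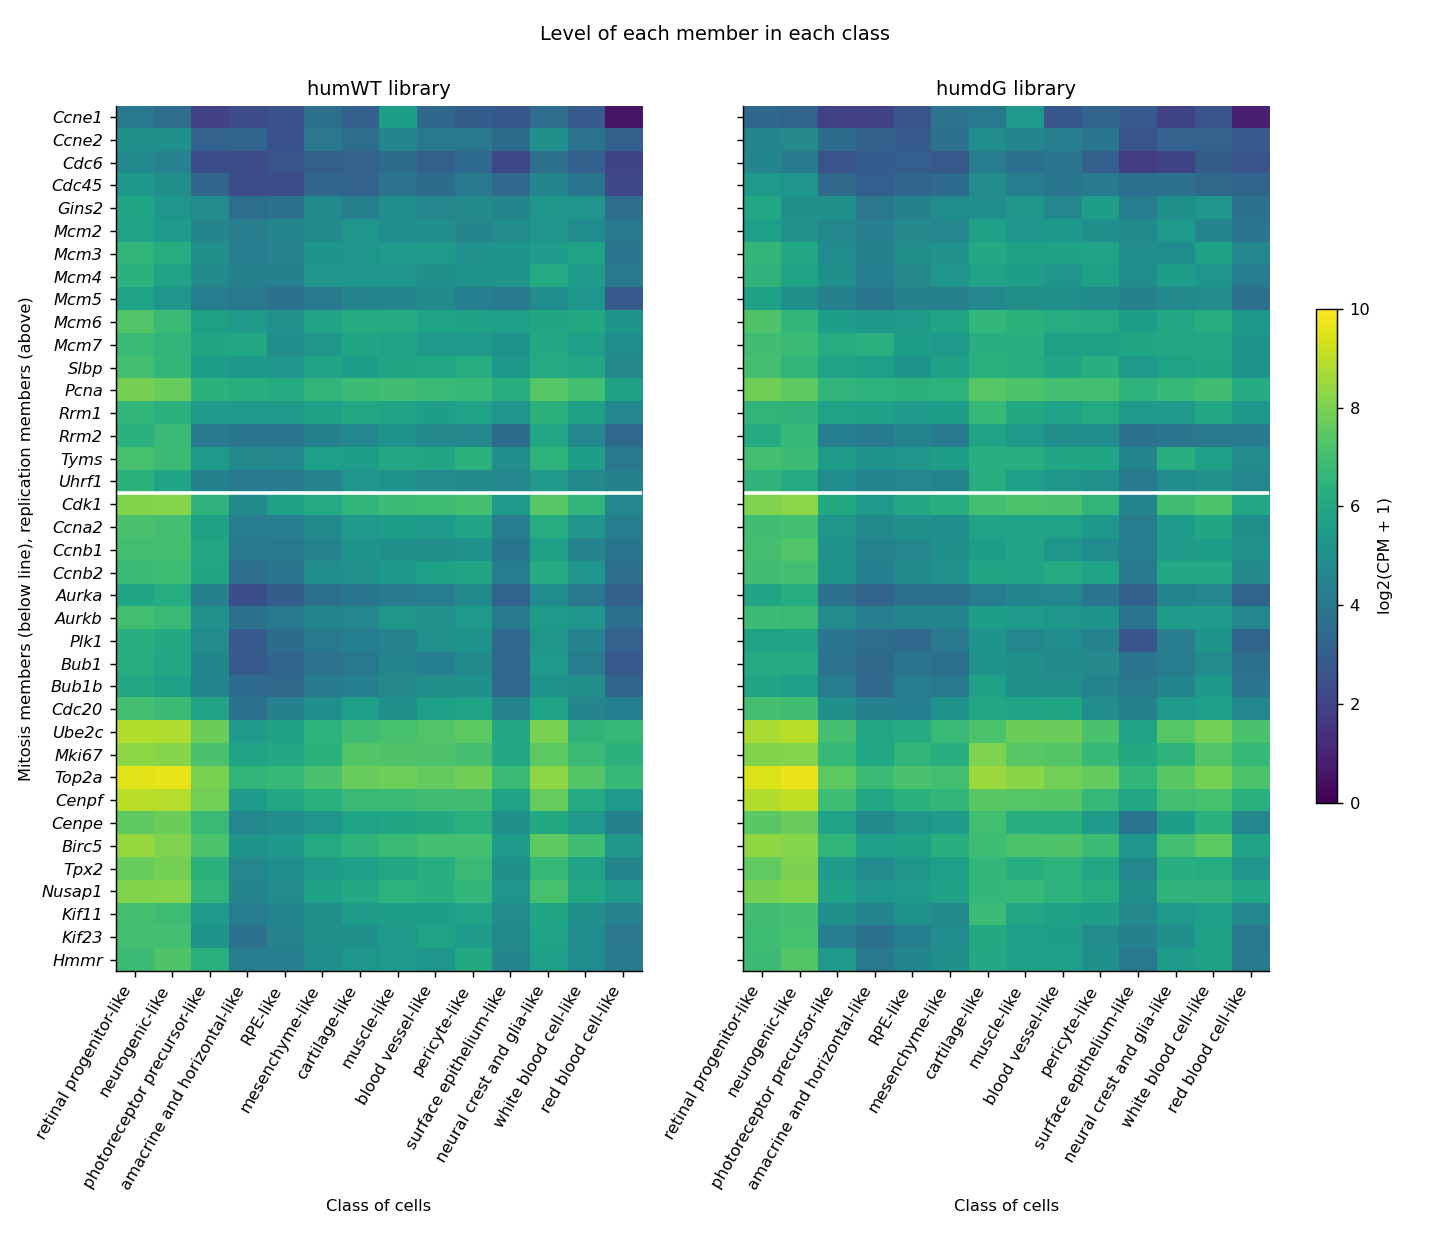
Level of each member, as log2(CPM + 1) by colour, in the 14 named classes (columns) of the humWT (left) and humdG (right) libraries, with replication members above the white line and mitosis members below it. The 2 left columns of each panel, retinal progenitor-like and neurogenic-like cells, are the brightest for most members, and Ccne1 is brightest in muscle-like cells.

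Within retinal progenitor-like cells, the 2 groups of members differed in level between cells typed by the other members. Each thinned cell was typed from the members other than the one measured, as mitosis-type when at least 2 mitosis UMIs outnumbered the replication UMIs and as replication-type in the reverse case. Every one of the 21 mitosis members had at least 1.5 times the level in mitosis-type cells in both libraries, with a median log2 ratio of 2.29 in humWT and 2.36 in humdG. Of the 17 replication members, 10 in humWT and 14 in humdG had at least 1.5 times the level in replication-type cells, with medians of -1.19 and -1.06, and none had it in mitosis-type cells. The ratio was computed for the members only, so no share over all genes can be set beside these counts. Ube2c, the enzyme that passes ubiquitin on with the anaphase-promoting complex, differed most in both libraries. It was at 636 CPM in mitosis-type and 32.3 CPM in replication-type humWT cells, and at 527 and 40.0 CPM in humdG. Ccnb1, the cyclin that drives entry into mitosis, was at 204 against 22.5 CPM in humWT and at 184 against 20.1 CPM in humdG. Cdc20, which activates the same complex, was at 150 against 22.5 CPM in humWT and at 151 against 24.3 CPM in humdG.

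Among replication members, Cdc6, which loads the MCM ring, was the most restricted in both libraries. It was at 64.1 CPM in replication-type and 9.94 CPM in mitosis-type humWT cells, and at 60.9 and 10.55 CPM in humdG. Mcm6 was at 277 against 66.7 CPM in humWT and at 238 against 88.6 CPM in humdG. Rrm1 and Rrm2 were not clearly divided in this way. Rrm2 was at 92.4 CPM in replication-type and 84.8 CPM in mitosis-type humWT cells, and Rrm1, the large subunit of the same enzyme, was at 102 and 78.6 CPM. The intervals of their log2 ratios included 0 in both libraries, as did those of Cdc45 and Ccne1. Tyms, the enzyme that makes thymidylate, was at 157 against 146 CPM in humWT and at 172 against 109 CPM in humdG. Mki67 and Top2a, which are in wide use as marks of dividing cells, were present in both types: Top2a was at 1034 CPM in mitosis-type and 358 CPM in replication-type humWT cells, and at 159 CPM in cells with no UMI of another member. In such cells Mcm6 was at 196 CPM in humWT and 207 CPM in humdG, nearer its replication-type level. Mcm2 was at 81.5 CPM there against 70.7 CPM in replication-type humWT cells, and at 53.9 against 86.0 CPM in humdG. Pcna was lower there than in replication-type cells (135 against 462 CPM in humWT, 152 against 353 CPM in humdG). Not every replication member thus set replication-type cells apart from cells without other members.

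**Figure D3:**
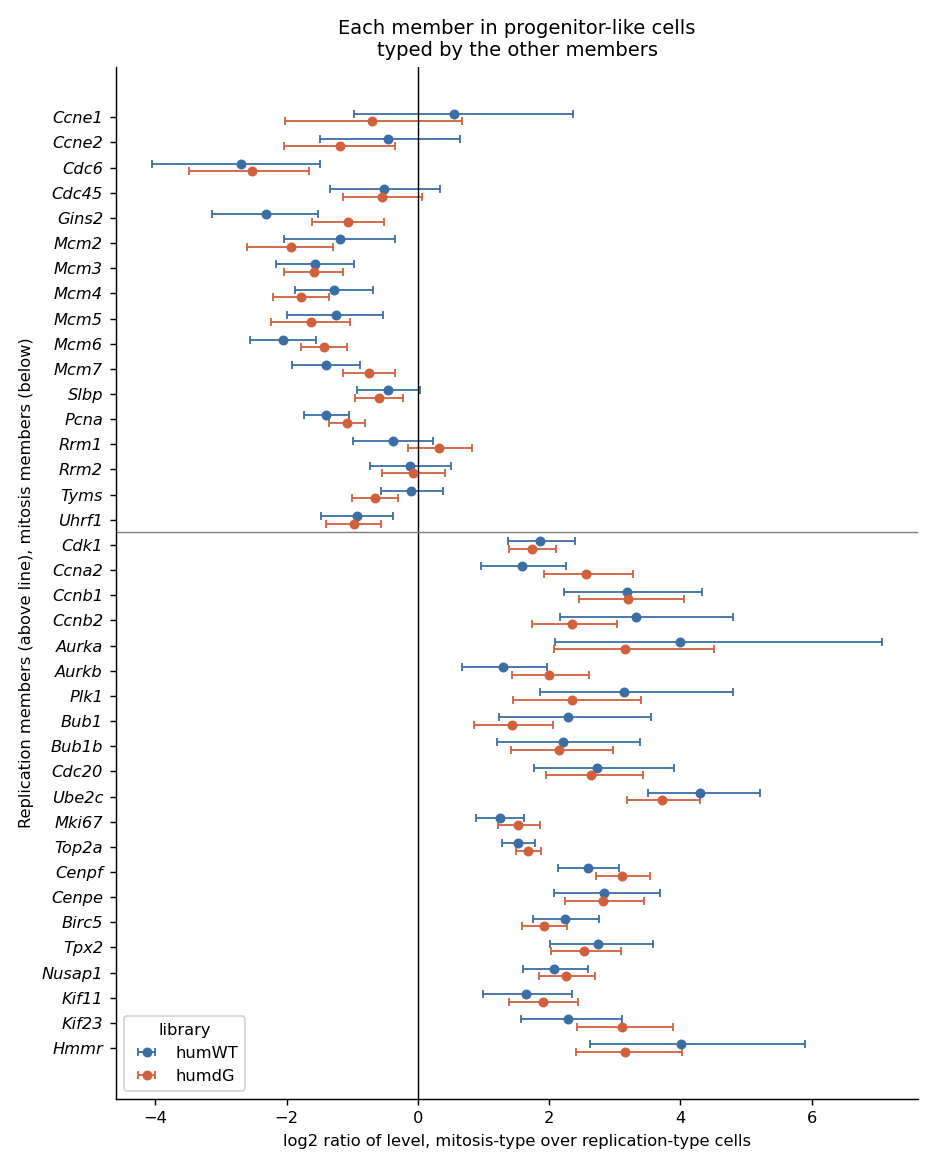
Log2 ratio of each member's level in mitosis-type over replication-type retinal progenitor-like cells, typed without that member, with exact 95% intervals for counting error; each point is 1 library. All 21 mitosis members (below the line) lie to the right of 0 in both libraries, and Cdc6, Mcm2 to Mcm7 and Pcna lie to the left, while Rrm1 and Rrm2 straddle 0.

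Replication and mitosis members also differed in promoter sequence, and the promoters of 2 replication and 3 mitosis members are shown because they hold the motifs counted here. The motifs were searched on both strands in the window from 250 bases before to 50 bases after the gene start, which RefSeq gives for 32 of the 38 members. The cell cycle homology element TTTGAA, known as a site of the DREAM complex that silences mitotic genes outside mitosis, was found in 13 of 18 mitosis promoters and 2 of 14 replication promoters, against 18.1% of all 27025 promoters. An E2F motif (TTTCCCGC, TTTGGCGC, TTTCGCGC or TTTGCCGC), bound by the factors that open S phase, was found in 5 of 14 replication and 1 of 18 mitosis promoters, against 2.32% of all. The CCAAT box, bound by NF-Y, was found in 16 of 18 mitosis and 11 of 14 replication promoters, against 37.9% of all. The next lines give the 160 bases before the gene start, 5′ to 3′ on the gene's strand, from RefSeq on GRCm38.p6, with these motifs in capitals, where CCAAT reads ATTGG and TTTGAA reads TTCAAA on the other strand and where E2F motifs on opposite strands overlap in Mcm6 and Mcm5.
Mcm6 (chr1:128359706-128359865, minus strand): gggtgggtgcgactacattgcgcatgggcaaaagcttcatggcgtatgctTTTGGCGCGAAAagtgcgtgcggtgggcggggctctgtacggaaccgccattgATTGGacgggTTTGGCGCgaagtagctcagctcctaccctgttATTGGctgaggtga
Mcm5 (chr8:75109349-75109508, plus strand): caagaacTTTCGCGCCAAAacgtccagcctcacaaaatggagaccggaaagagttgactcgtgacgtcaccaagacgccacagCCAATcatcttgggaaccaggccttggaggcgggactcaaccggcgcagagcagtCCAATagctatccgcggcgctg
Cdk1 (chr10:69352913-69353072, minus strand): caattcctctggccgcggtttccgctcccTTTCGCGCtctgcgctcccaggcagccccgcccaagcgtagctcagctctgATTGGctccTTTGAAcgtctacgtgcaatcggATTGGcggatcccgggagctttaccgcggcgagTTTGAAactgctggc
Cdc20 (chr4:118437344-118437503, minus strand): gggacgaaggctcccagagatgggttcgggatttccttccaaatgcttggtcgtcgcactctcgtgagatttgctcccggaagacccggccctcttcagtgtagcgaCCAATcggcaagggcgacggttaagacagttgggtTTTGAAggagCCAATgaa
Ube2c (chr2:164769769-164769928, plus strand): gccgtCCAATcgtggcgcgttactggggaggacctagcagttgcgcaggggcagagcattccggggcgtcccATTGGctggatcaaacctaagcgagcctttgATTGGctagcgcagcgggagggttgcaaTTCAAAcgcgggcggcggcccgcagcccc

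The motif lines are set beside the typing of cells, but the genes shown were picked because they hold the motifs. Mcm6 and Mcm5 each hold overlapping E2F motifs on opposite strands and CCAAT boxes but no TTTGAA in the lines shown, and both were higher in replication-type cells. Cdc20 and Ube2c hold TTTGAA near the gene start with CCAAT boxes and no E2F motif, and both were higher in mitosis-type cells. Cdk1, the kinase of mitotic entry, holds TTTGAA at 2 places together with 1 E2F motif. All 21 mitosis members were higher in mitosis-type cells in both libraries, so no link between motif and typing is read from these lines. Ccnb1 and Cenpe held no TTTGAA in the window searched and were also higher in mitosis-type cells (log2 ratios 3.18 and 2.83 in humWT). Mcm2 held TTTGAA and was higher in replication-type cells (-1.19 in humWT and -1.94 in humdG). A match of letters is a description and does not show that a factor was bound.

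Between the genotypes, retinal progenitor-like cells differed little in these genes. The summed level in humdG was 0.940 times that in humWT (0.932 to 0.948), with 0.978 times for replication members (0.962 to 0.994) and 0.928 times for mitosis members (0.919 to 0.936). None of the 38 members was at least 1.5 times higher in humdG and 1 was at least 1.5 times lower (2.63%), whereas of 16001 genes with at least 20 UMIs in the class 4.96% were higher and 10.5% were lower by that fold. The median log2 ratio of the members was -0.08, beside -0.03 over all genes. A smaller share of the members than of all genes was past the fold in this class, but they were not matched for level. Ccne1, the member with the fewest UMIs, had 231 in humWT and 241 in humdG, whereas a gene needed only 20. Counting error moves genes with few UMIs further, so no greater stability of the members is read from these shares.

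The single member past the fold was Ccne1, at 15.2 CPM in humWT and 9.23 CPM in humdG (log2 ratio -0.72, interval -0.98 to -0.45). It was followed by Plk1, a kinase that acts from mitotic entry to cell division, at 76.8 and 55.0 CPM (-0.48), and by Ccne2, the second cyclin E, at 30.8 and 22.7 CPM (-0.44). Both E cyclins were thus lower in humdG. The highest ratios were those of Mcm7 (109 and 122 CPM, 0.16), Mcm4 (82.5 and 89.97 CPM, 0.13) and Ccnb2, a mitotic cyclin (112 and 122 CPM, 0.12).

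The other subunits of the MCM helicase lay between these. Mcm2 was at 53.0 CPM in humWT and 48.5 CPM in humdG, Mcm3 at 93.4 and 97.4 CPM, Mcm5 at 55.1 and 51.9 CPM and Mcm6 at 153 and 150.5 CPM. Pcna was at 245 and 226 CPM (-0.12, interval -0.18 to -0.06). Mki67, a coat protein of mitotic chromosomes, was at 318 and 274 CPM (-0.21, interval -0.27 to -0.16) and Top2a at 748 and 690 CPM (-0.12). Cdk1 was at 274 and 264 CPM (-0.05) and Ccnb1 at 127 and 130 CPM (0.03). Apart from the E cyclins and Plk1, every member's log2 ratio lay between -0.23 and 0.16.

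The 2 clusters of the class were not alike. In the larger, with 1296 humWT and 1940 humdG cells, the summed level in humdG was 0.976 times that in humWT (0.967 to 0.986). In the smaller, with 419 and 1021 cells, it was 0.876 times (0.863 to 0.889), where mitosis members stood at 0.831 times and replication members at 1.03 times. The mitosis share there was 77.1% in humWT and 73.1% in humdG.

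**Figure D4:**
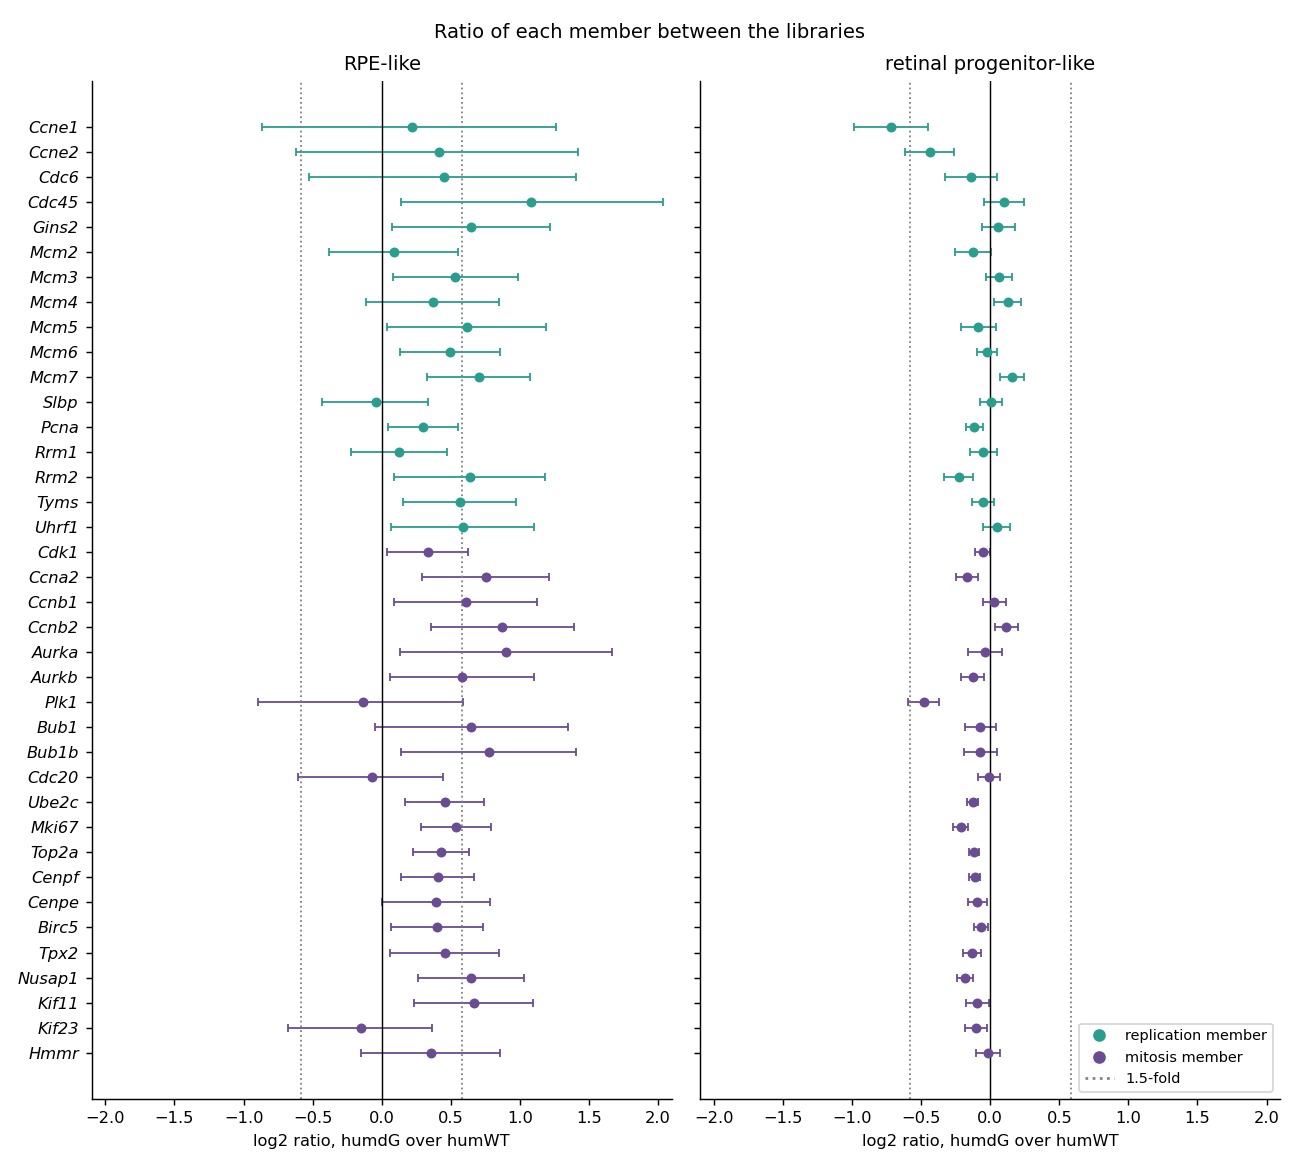
Log2 ratio of each member's level, humdG over humWT, in RPE-like and retinal progenitor-like cells, with exact 95% intervals for counting error and 1 library per genotype. In retinal progenitor-like cells the points lie near 0 apart from Ccne1, Plk1 and Ccne2, and in RPE-like cells most points lie to the right of 0 with wider intervals.

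In RPE-like cells most members were higher in humdG. The summed level was 1.35 times that of humWT (1.29 to 1.41), with 1.32 times for replication members (1.22 to 1.42) and 1.37 times for mitosis members (1.30 to 1.45). Of the 38 members, 15 (39.5%) were at least 1.5 times higher, 6 of replication and 9 of mitosis, and none was lower by that fold, while 7.66% of 12741 genes were higher and 14.4% were lower. The median log2 ratio was 0.48 for members and -0.05 for all genes. Red blood cell-like cells gave nearly the same picture: 14 of the 35 members that passed the minimum of 20 UMIs there (40.0%) were at least 1.5 times higher in humdG and none was lower, against 15.2% and 24.3% of 7762 genes, and the summed level was 1.45 times that of humWT (1.36 to 1.55). The part of free RNA in the RPE-like difference was not tested. The count rested on how RPE-like cells were chosen. With the unnamed pigment cluster that has Pax3 added, 0 members were at least 1.5 times higher. With cells picked by RPE markers instead of clusters, 1 was higher and 1 lower. That rule took 2473 humWT and 974 humdG cells, of which only 501 and 365 were in the RPE-like class. The shares of all genes past the fold in these settings are not given here.

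By role, the helicase and its loaders were low in RPE-like cells of both libraries. Mcm2 was at 23.4 CPM in humWT and 24.9 CPM in humdG, Mcm3 at 20.7 and 29.99 CPM, Mcm4 at 19.6 and 25.3 CPM, Mcm5 at 12.7 and 19.5 CPM, Mcm6 at 32.3 and 45.6 CPM and Mcm7 at 28.7 and 46.7 CPM. All 6 were higher in humdG, and the intervals of Mcm2 and Mcm4 included no difference. Cdc45, part of the active helicase, had the highest ratio, at 4.23 and 8.96 CPM (log2 ratio 1.08, interval 0.14 to 2.04), resting on 19 and 23 UMIs. Pcna was at 69.5 and 85.7 CPM (0.30, interval 0.05 to 0.56).

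Among mitosis members, Aurka, the kinase of spindle poles, was at 6.68 CPM in humWT and 12.5 CPM in humdG (0.90, interval 0.13 to 1.67), and Ccnb2 was at 14.3 and 26.1 CPM (0.87, interval 0.36 to 1.39). Mki67 was at 64.4 and 93.5 CPM (0.54, interval 0.29 to 0.79) and Top2a at 103 and 138 CPM (0.43, interval 0.23 to 0.63). These marks of dividing cells thus differed by less than 1.5 times. Cdk1 was at 51.7 and 65.0 CPM (0.33) and Ccnb1 at 15.6 and 23.8 CPM (0.61). The lowest ratios were those of Kif23, a motor of the dividing midzone (21.2 and 19.1 CPM, -0.15), Plk1 (10.7 and 9.74 CPM, -0.13) and Cdc20 (20.04 and 19.1 CPM, -0.07), and their intervals included 0.

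Set against red blood cell-like cells of the same library, RPE-like cells held more of some replication members and about as much of the mitosis members. The ratios were not corrected for the red blood cell markers, which lower the CPM of other genes in red blood cell-like cells. Replication members summed to 1.30 times the red blood cell-like level in humWT (1.19 to 1.42) and 1.26 times in humdG (1.13 to 1.41), and mitosis members to 1.01 times (0.95 to 1.08) and 0.928 times (0.863 to 0.998). Cdk1 was 2.09 times that level in humWT and 1.00 times in humdG, Pcna 1.38 and 1.21 times, Top2a 1.01 and 0.965 times, Mki67 0.756 and 0.916 times and Ube2c 0.520 and 0.513 times.

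The difference between the libraries depended on depth, a split made after the values were seen. In RPE-like cells with under 3000 UMIs the members summed to 1475 CPM in humWT and 2721 CPM in humdG, a ratio of 1.85 (1.69 to 2.02). Between 3000 and 10000 UMIs they summed to 1218 and 1631 CPM, a ratio of 1.34 (1.23 to 1.45). At 10000 UMIs or more they summed to 789 CPM (755 to 824) and 776 CPM (732 to 822), a ratio of 0.984 (0.915 to 1.06). The deepest cells therefore showed no difference beyond counting error. The interval leaves out the spread between cells and between libraries, so it excludes no ratio between the genotypes. There, of 34 members with at least 20 UMIs, 3 were at least 1.5 times higher and 3 lower in humdG, beside 5.82% and 13.9% of all genes. The called share followed the same course, with 45.0% and 76.2% in the shallowest cells, 33.1% and 50.9% in the middle range and 15.6% (9.4 to 23.8) and 10.3% (4.2 to 20.1) in the deepest, of which there were 109 and 68 cells.

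The ratio was compared by depth in some of the other classes too. In the 7 of these classes, RPE-like cells included, that had values in each of the 3 ranges, the ratio was lower at each step up in depth, from between 1.36 and 1.85 under 3000 UMIs to between 0.610 and 1.14 at 10000 UMIs or more. Red blood cell-like cells held 1594 CPM in humWT and 2235 CPM in humdG under 3000 UMIs, and 823 and 1200 CPM between 3000 and 10000 UMIs, so that their ratio did not fall between these ranges (1.40 and 1.46), nor did that of cartilage-like cells (1.47 and 1.49). In retinal progenitor-like cells the level ran the other way within each library, from 2130 and 2896 CPM in the shallowest to 8223 and 7294 CPM in the deepest cells, where mitosis members made up 82.1% and 81.7% of member UMIs.

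**Figure D5:**
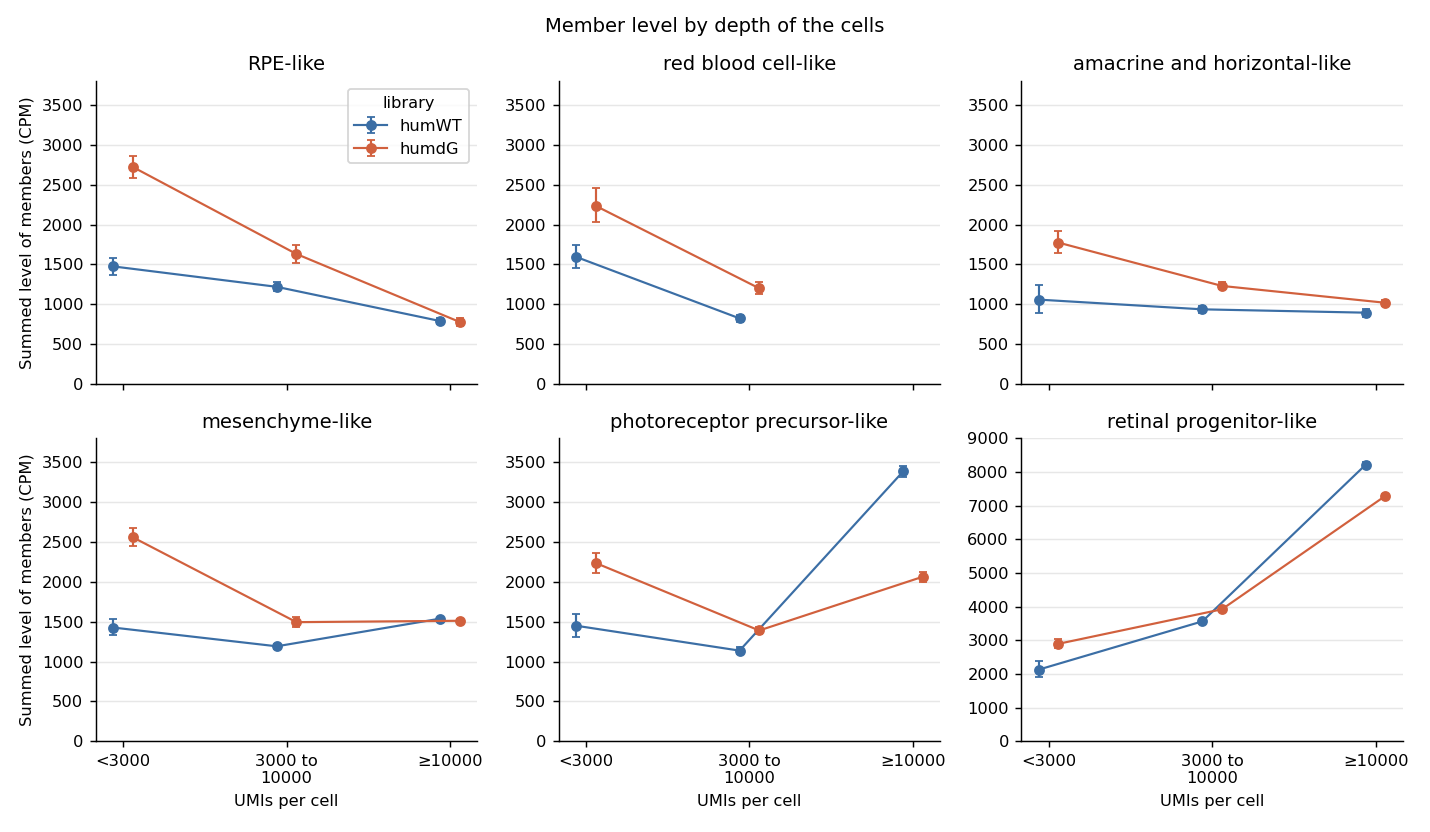
Summed level of the 38 members (CPM) by range of UMIs per cell, for the humWT and humdG libraries, with exact 95% Poisson intervals, and with a longer axis for retinal progenitor-like cells. RPE-like cells approach each other with depth, from 1475 and 2721 CPM under 3000 UMIs to 789 and 776 CPM at 10000 UMIs or more, whereas retinal progenitor-like cells are highest in the deepest range.

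RPE-like cells that were called also held lower levels of RPE markers. In humWT, the 208 called cells held 12648 CPM of the 10 RPE markers and the other 402 cells 20114 CPM, and in humdG the 271 called cells held 9512 CPM and the other 180 cells 21257 CPM. Their median depths were 3116.5 and 4099 UMIs in humWT, and 2117 and 4192 UMIs in humdG. The sum of the 9 retinal progenitor markers was higher in called cells, with 1217 CPM in called and 968 CPM in other humWT cells, and 1759 and 1256 CPM in humdG. Among these, Sfrp2 was lower in called cells of both libraries (184 and 195 CPM in humWT, 172 and 315 CPM in humdG). Mesenchyme markers were also higher in called cells (4644 and 2898 CPM in humWT, 2007 and 1228 CPM in humdG), as were red blood cell markers (6135 and 5848 CPM, 10695 and 6110 CPM). The part of RNA from other cell types in these calls was not tested. Cells with at least 4 member UMIs after thinning, the median of retinal progenitor-like cells, made up 7.05% (5.15 to 9.38) of RPE-like cells in humWT and 21.3% (17.6 to 25.4) in humdG, beside 5.52% (3.73 to 7.84) and 13.7% (9.77 to 18.4) of red blood cell-like cells and 54.1% and 55.4% of retinal progenitor-like cells.

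Photoreceptor precursor-like cells differed between the libraries mainly in mitosis members. Mitosis members in humdG were at 0.618 times the humWT level (0.599 to 0.638), and replication members at 1.13 times (1.08 to 1.19). Of the 21 mitosis members, 14 were at least 1.5 times lower in humdG, which is 36.8% of all 38 members, beside 11.1% of 13613 genes, and no member was higher by that fold, beside 5.66%. Cenpf, a kinetochore protein, was at 232 CPM in humWT and 117 CPM in humdG (-0.98, interval -1.12 to -0.84), and Cenpe, the kinetochore motor, at 105 and 54.5 CPM (-0.95). Top2a was at 255 and 180 CPM (-0.50), and Mki67 at 138 and 102 CPM (-0.44). The smallest difference was that of Aurkb, the kinase of the inner centromere, at 32.7 and 27.1 CPM (-0.27, interval -0.59 to 0.05).

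The UMIs were unevenly spread over cells. The 64 humWT photoreceptor precursor-like cells with the most member UMIs, 10% of the class, held 74.4% of them, with up to 1106 in 1 cell, and the corresponding 86 humdG cells held 43.7%, with up to 509. In RPE-like cells the top 10% held 46.5% and 34.5%. Called photoreceptor precursor-like cells held more of the retinal progenitor markers than the others of that class. These markers were at 2011 and 1048 CPM in humWT, and at 1808 and 1340 CPM in humdG. Median doublet scores of called and other cells were 0.072 and 0.049 in humWT, and 0.074 and 0.054 in humdG. The part of progenitors or doublets in the difference between the libraries was not tested. The lower level of photoreceptor precursor-like cells in humdG was seen only in the deepest of the 3 depth ranges. The members summed to 1450 CPM in humWT and 2237 CPM in humdG under 3000 UMIs, to 1137 and 1390 CPM between 3000 and 10000 UMIs, and to 3384 and 2064 CPM at 10000 UMIs or more. Below 10000 UMIs, the mitosis share of photoreceptor precursor-like cells was 65.0% in humWT and 63.0% in humdG under 3000 UMIs, and 64.7% and 62.2% between 3000 and 10000 UMIs. In the 109 humWT and 134 humdG cells above that depth it was 82.5% and 71.6%.

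The other replication and mitosis genes of a longer list, 52 and 60 genes without the members, was counted in the same way. In RPE-like cells, 7 of 50 replication genes (14.0%) and 17 of 59 mitosis genes (28.8%) that passed the minimum were at least 1.5 times higher in humdG and none was lower. Of all genes in the class, 7.66% were higher and 14.4% lower. The median log2 ratios were 0.23 and 0.28, beside -0.05 over all genes. Gins1, a subunit of the GINS complex, was at 3.56 CPM in humWT and 11.3 CPM in humdG, on 16 and 29 UMIs (1.66, interval 0.74 to 2.64), and E2f2, an E2F factor, at 3.34 and 7.01 CPM (1.07). The lowest were Ttk, a kinase of the spindle checkpoint (8.68 and 5.84 CPM, -0.57), and Ect2, which acts in cytokinesis (22.3 and 15.6 CPM, -0.52).

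In retinal progenitor-like cells, none of the 52 replication genes passed the fold. Of all genes in the class, 4.96% were higher and 10.5% lower, and the lists were not matched to them for level. Of the 60 mitosis genes none was higher and 1 was lower. That gene was Pttg1, which encodes securin, the guard of sister chromatid cohesion, at 81.0 CPM in humWT and 49.9 CPM in humdG (-0.70, interval -0.81 to -0.58). Gins3 was at 18.3 and 13.1 CPM (-0.48). Timeless, a protein of the replication fork (31.1 and 38.4 CPM, 0.30), and Nasp, a histone chaperone (408 and 484 CPM, 0.25), had the highest ratios. In photoreceptor precursor-like cells, 27 of the 60 mitosis genes (45.0%) were at least 1.5 times lower in humdG and none was higher, with a median of -0.55. Of all genes in that class, 11.1% were lower and 5.66% higher.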

How the data were processed

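Eye cups were profiled by 3′ single-cell RNA sequencing. The authors deposited raw UMI counts per gene and cell, made with Cell Ranger 7.1.0 per the file headers, on mm10 per the labels. Seurat 4.1.1 is named in the submitters' processing notes, and whether intronic reads were counted is not given in the sources used here. The humWT file held 17421 barcodes and 129135207 UMIs, and the humdG file 19565 barcodes and 114319529 UMIs.

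Barcodes needed over 500 genes, and a mitochondrial share below 15%. Scrublet, run in scanpy 1.11.5, called 1 and 0 doublets and did not work as a caller, and each library instead lost its top 5% by doublet score (851 and 956 cells). Libraries were integrated by canonical correlation in Seurat 5.3.0 (2000 variable genes, 20 dimensions). They were clustered on the first 20 of 30 components at resolution 0.5, with 277 cell cycle and histone genes left out. Clusters were named "-like" from fixed markers, and a pigment cluster with Pax3 was left unnamed by a rule added after its values were seen. Cells under 1000 UMIs, 50 in humWT and 368 in humdG, were left out of thinned shares.

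Shares have exact Clopper-Pearson intervals, levels exact Poisson intervals and ratios exact conditional binomial intervals. All cover counting error only. A gene was counted past the fold at 1.5 times, given 20 or more UMIs in the libraries together, with 0.5 UMIs added. The intervals and fold counts were run on counts simulated from class sums with counting error only. The simulation held no spread between cells or libraries, so it cannot show how the intervals behave under such spread. No test between genotypes was run, since each is 1 library. Members and lists were chosen with earlier results of these data known. In RPE-like and retinal progenitor-like cells, values were given for Mki67, Top2a, Pcna, Mcm2 to Mcm7, Ccnb1, Cdk1 and the 3 highest and 3 lowest ratios among members, and for the 2 highest and 2 lowest ratios of the longer list. Other members were named after their values were seen. Alternatives varied the clustering, filters, thinning, call, fold and RPE definition.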

Additional observations from a re-analysis of the deposited data

Results flagged for a closer look

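For replication and for mitosis members, the classes with the highest and the lowest ratio of the summed level, humdG over humWT, lay on opposite sides of 1. The difference between classes was not tested, since each genotype is 1 library. Mitosis members in photoreceptor precursor-like cells had a ratio of 0.618, while in cartilage-like cells it was 1.67. Replication members had a ratio of 1.61 in cartilage-like cells and 0.695 in neural crest and glia-like cells. In cartilage-like cells 5804 of 12022 genes were at least 1.5 times higher in humdG and the median log2 ratio over all genes was 0.56, beside 0.75 for the members. The cartilage-like class held 1238 humWT and 106 humdG cells, and the neural crest and glia-like class held 51 and 40. In humdG, 20 cartilage-like cells with 10000 UMIs or more held 4511 of the 5220 member UMIs of the class. Fewer than 20 humWT cells of the class were that deep, so its ratios rest largely on a few deep humdG cells.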

How the results depend on the processing

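No paired analysis was possible because each genotype is 1 library, and for the same reason no library could be left out. Differences are humdG minus humWT in percentage points, and the main values are 25.99 (RPE-like), 4.58 (retinal progenitor-like) and 22.3 (all cells) for called shares, 0.946 (RPE-like) and -0.985 (retinal progenitor-like) for mitosis shares, and 15 RPE-like members at least 1.5 times higher. Counts of members past the fold in the settings below are of those higher in humdG. The share of all genes past the fold is not set beside them, so they are not read as results about the members. With cell cycle genes kept in the clustering, 9 RPE-like members were past the fold, and in retinal progenitor-like cells the called share differed by -0.597 and the mitosis share by 0.464. Without integration the latter was -0.629, and a 10% mitochondrial limit gave 9 members. With cells of 2000 UMIs or more, called shares differed by 17.7 (RPE-like) and 17.4 (all cells) and 6 members passed. For RPE-like, retinal progenitor-like and all cells, called shares differed by 15.8, 1.94 and 11.6 after thinning to 2000 UMIs, by 5.91, 0.264 and 3.64 without thinning, and by 16.04, 1.90 and 13.3 at 1 member UMI. Seurat phase scoring gave 27.01 for all cells and -0.403 for the retinal progenitor-like mitosis share, and leaving out the largest unnamed cluster gave 17.46 for all cells. Cells picked by RPE markers differed by 18.2, with 1 member past the fold, as at a fold of 2. Most of those cells lay outside the RPE-like class.

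The following were added after seeing the data. With the pigment cluster that has Pax3, 0 RPE-like members were past the fold. The larger retinal progenitor-like cluster alone had a mitosis share difference of 0.34, and the smaller one -3.92 with a called share difference of -0.732. With cells of 10000 UMIs or more, called shares differed by -5.30 (RPE-like), -1.93 (retinal progenitor-like) and 14.3 (all cells), and mitosis shares by -1.77 and -0.386 (RPE-like and retinal progenitor-like). In these cells 3 RPE-like members were at least 1.5 times higher, and the lower ones and the shares of all genes are given with the depth ranges above. The cause of these changes was not tested. No retinal progenitor-like member was at least 1.5 times higher under any of the 14 settings run for that count, for which the shares of all genes are not given. A thinned RPE-like cell holds few member UMIs, which limits its called shares.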
